A study of Mus musculus with 4 samples.

Results

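Sialomucins are membrane proteins whose outer part carries dense, sialic acid-capped O-linked sugars. On vessel walls and blood cells these negatively charged chains can keep cells apart, and once suitably modified they can also serve as ligands for selectins, the lectins that slow leukocytes on endothelium. Cd34 is the familiar surface marker of blood stem and progenitor cells and of vessels, and Spn (CD43) is the leukocyte sialomucin that appears as blood cells emerge from endothelium. The 8 genes taken here were Cd34, Podxl and Podxl2 (the CD34 family), Emcn (endomucin of endothelium), Spn and Selplg (the P-selectin ligand PSGL-1), Cd164 (a sialomucin of endosomes and the cell surface) and Prom1 (CD133, a pentaspan membrane glycoprotein rather than a mucin). They were chosen by name, and all 8 were found in the array annotation, with 11 of the 45101 probe sets, out of 18194 named genes. Each of the 11 probe sets carried a single gene symbol.

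RNA came from 4 populations sorted on day 6 of the differentiation of Runx1(Venus/+) embryonic stem (ES) cells on OP9 stromal cells, with no treatment beyond the culture. In this line, derived from CCE ES cells, the Venus reporter sits in 1 Runx1 allele under the proximal promoter P2, so every population had 1 intact Runx1 allele and none was wild type. Population 4 was Runx1-Venus positive, CD41 positive and VE-cadherin negative, and population 3 was positive for all 3 of these markers. Population 2 was Runx1-Venus and VE-cadherin positive but CD41 negative, and population 1 was Runx1-Venus negative and positive for VE-cadherin and Flk1. Each population was measured on 1 Affymetrix array, so no test and no error between populations can be given, and the number of arrays limits the precision. A replicate set of these populations was run by the study on Agilent arrays and was not analysed here. Signals are in intensity units on a linear scale.

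Of the 16 endothelial markers, 16, 15, 15 and 8 had signals above 100 in populations 1 to 4, with summed signals of 44667, 28570.3, 35765 and 3667. Of the 16 haematopoietic markers, 3, 4, 12 and 15 exceeded 100, with summed signals of 2798, 2631, 10384 and 54485. Of 11 measured markers of stromal cells, the kind used as the co-culture layer, 6, 4, 4 and 4 exceeded 100, and their summed signal was 4529, 3115, 2578 and 2135. The stromal markers Col1a2, Acta2, Col3a1 and Pdgfrb exceeded 100 in every population, with Col1a2 at 1988, 1132, 969.9 and 843, while Pdgfra, Col1a1, Dcn, Lum and Thy1 stayed below 100 in every population. The part of stromal RNA in the values below was not tested. All 8 pluripotency markers stayed below 100. Runx1 itself had signals of 55.3, 358, 1297 and 2440.2 in populations 1 to 4. Of the genes behind the sorted surface proteins, Cdh5 (VE-cadherin) had 5683, 3946, 4849 and 40.9, Kdr (Flk1) had 5866, 4496, 4835 and 906, and Itga2b (CD41) had 667, 1135, 2418 and 1609.5. The CD41 negative population 2 thus still carried Itga2b signal, as did population 1. The 4 markers of each list taken by the ratio of populations 4 and 1, with signals below 100 set to 100, were Cd93, Cdh5, Sox17 and Esam, all lower in population 4 (74.3, 40.9, 14.7 and 202), and Hbb-bh1, Hbb-y, Hba-x and Klf1, all higher in population 4 (15940.0, 13284, 10684 and 2538). Ratios that rest on that floor are minimums, so these markers are not ranked against others such as Cldn5 (24.4 in population 4). In sorted bulk samples, fewer cells of a type and less RNA per cell cannot be told apart.

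In population 4, Emcn and Cd34 were far lower than in population 1, and Prom1 was lower as well, while the signals of Podxl and Cd164 lay within 1.17-fold of those in population 1. The leukocyte sialomucin genes Spn and Selplg did not exceed 100 in population 4. Among genes that exceeded 100 in 1 or more populations, 3 of 6 sialomucin genes were lower by at least 2-fold in population 4 relative to population 1 and 0 were higher by that much, against 12.9% lower and 22.4% higher among 9468 genes. Those shares were 15.5% and 15.1% after quantile normalisation, and 10.2% and 34.6% when scaled on the hybridisation controls, with 3 sialomucin genes lower in both. The median log2 ratio over the 6 genes was -1.09, and over all 9468 genes it was 0.36. That -1.09 lies in a gap between Prom1, at the bound of -1.96, and Podxl, at -0.22. Emcn (a bound) and Cd34 lay at -4.64 and -3.52, Cd164 at -0.17, and Selplg, below 100 in both, at 0. With 6 genes each such median rests on the middle values alone. Podxl2 and Spn were not counted, because no probe set of either exceeded 100 anywhere, and Selplg was counted through population 3 alone. For every ratio, signals below 100 were set to 100. A fold that involves one of them is only a minimum and is given as "at least".

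**Figure D1:**
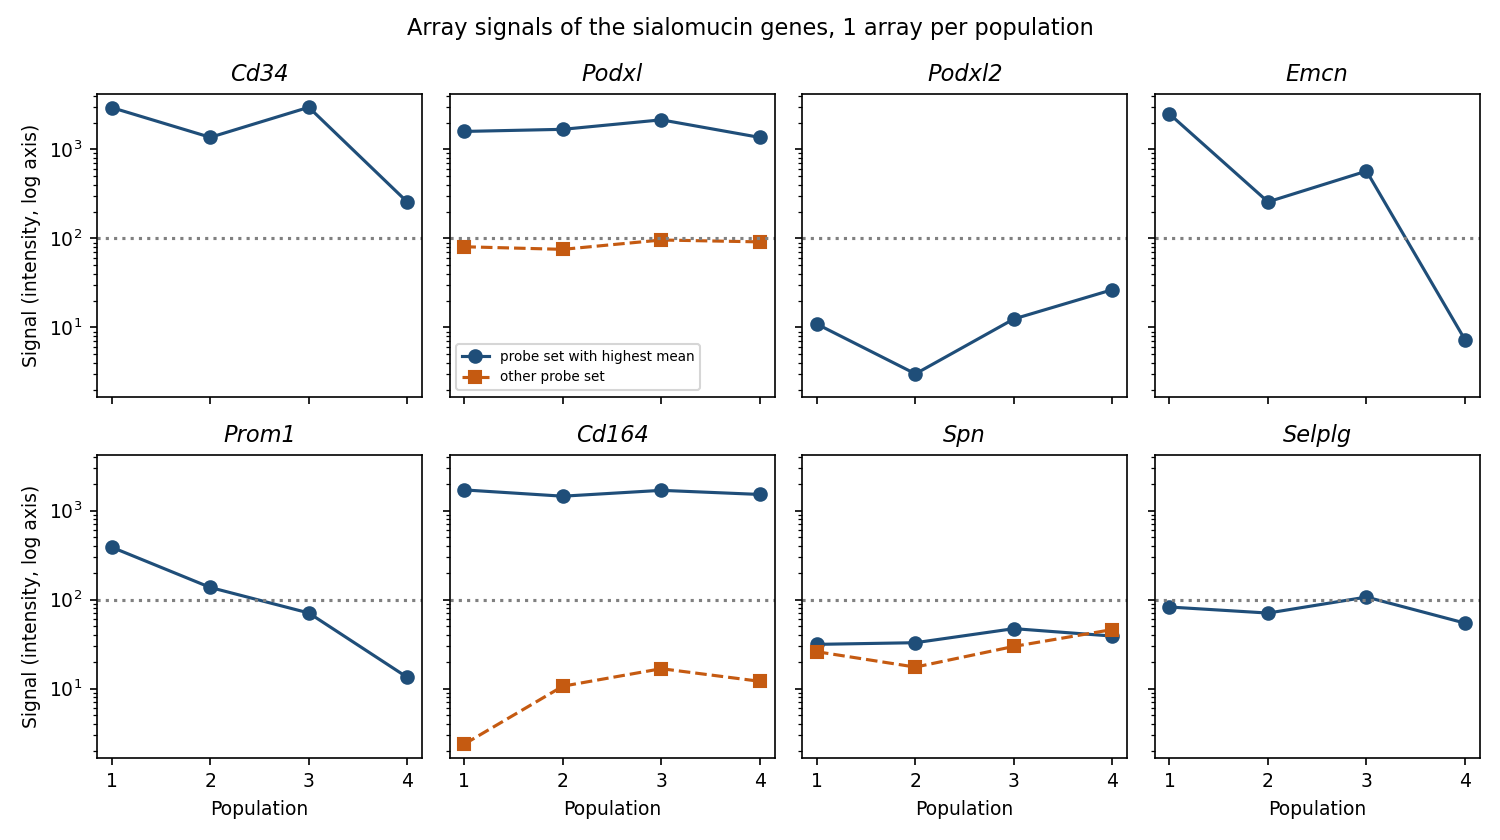
Signal (intensity, log axis) of the 8 sialomucin genes, with populations 1 to 4 from left to right, 1 array each and so no error. Circles give the probe set with the highest mean, squares a gene's other probe set, and the dotted line a signal of 100; the Emcn signal was 7.28 in population 4 against 2498 in population 1, and both Spn probe sets stay below 100.

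Short stretches of promoter are shown for the 3 genes whose signals differed most between populations, to give the letters of blood and endothelial factor motifs beside the signals. RefSeq promoter windows (build GRCm38.p6, 250 bases before to 50 after a gene's start) were on hand for 6 of the 8 genes, with 9 windows in all. They were searched on both strands for the RUNX letters TGTGGT or TGCGGT, the GATA letters AGATAA or TGATAA, and the ETS letters CGGAAG or AGGAAG. Capitals mark the match, and each stretch reads 5′ to 3′ along the gene's strand.
Cd34, chr1:194938667-194938696, plus strand, ETS letters on the opposite strand: cgtacacagtggCTTCCTgccacacttaaa
Emcn, chr3:137340973-137341002, plus strand, ETS letters: agtggctgccaaAGGAAGagagaggaaaaa
Emcn, chr3:137340892-137340921, plus strand, ETS letters on the opposite strand: caagaagggtctCTTCCTgttcaaatccca
Prom1, chr5:44101743-44101772, minus strand, RUNX letters: cccaatcactctTGTGGTgccctggggctg
The Cd34 match began 142 bases upstream of the start, the Emcn matches 93 and 174 bases upstream, and the RUNX match of Prom1 24 bases upstream of 1 of its 2 annotated starts. The window of the other Prom1 start held ETS letters 70, 159, 171 and 238 bases upstream, not printed here. ETS letters were in 6 of the 9 windows, against 46.5% of all 32851 windows. RUNX letters were in 2 of the 9, those of Prom1 and Podxl2, against 22.4% of all windows. GATA letters were in the Emcn window alone, against 18.6%. No matches shared a base. A match is a description of the letters and not a binding site.

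Among the CD34 family, Cd34 had signals of 2950.1 in population 1, 1367 in population 2, 2974 in population 3 and 257 in population 4. On the deposited scale it was thus as high in population 3 as in population 1, lower in population 2 and lowest in population 4. Cd34 was 11.6-fold lower in population 4 than in population 3 (log2 ratio -3.53). On signals raised to 100, 82 of 9468 genes had a lower ratio. Of 16 endothelial markers, 7 had a lower and 9 a higher ratio than Cd34 there, so that Cd34 lay within their range. Among the 9, Cldn5 and Robo4 were below 100 in population 4, and Clec14a was below 100 in both populations. These markers cannot be ordered against Cd34. It is read by 1 probe set, so no second probe set of the gene can be compared.

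Podxl encodes podocalyxin, a sialomucin of podocytes and vascular endothelium that in other settings keeps membranes from adhering. Its signals were 1592 in population 1, 1682 in population 2, 2149.9 in population 3 and 1364 in population 4. As deposited, population 3 was highest and population 4 lowest, but the highest signal was only 1.58-fold the lowest. The log2 ratio of population 3 over 2 was 0.35 as deposited and -0.03 after centring on the array median, so that order depended on scaling. In population 4, Podxl was 1.58-fold lower than in population 3, whereas 15 of 16 endothelial markers had a lower ratio in that comparison. The remaining marker, Clec14a, was below 100 in both populations and cannot be compared. The gene's other probe set gave 80.7, 75.4, 96.1 and 91.5 in populations 1 to 4 and so added nothing above 100. Set against population 1, Podxl in population 4 had a log2 ratio of -0.22, which ran between -0.52 after quantile normalisation and 0.11 when scaled on the hybridisation controls, so its sign is not settled.

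Podxl2 encodes endoglycan, the least studied of the family. Its single probe set gave 10.9, 3.01, 12.5 and 26.6 in populations 1 to 4, all below 100. Differences among signals this low were not ordered.

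Emcn encodes endomucin, an endothelial sialomucin that hinders leukocyte adhesion. It had signals of 2498 in population 1, 258 in population 2, 571 in population 3 and 7.28 in population 4. Population 1 was highest, populations 2 and 3 were intermediate, and population 4 was far below 100. Emcn was 9.70-fold lower in population 2 than in population 1. On signals raised to 100, only 8 of 9468 genes had a lower ratio in that comparison. On the same signals all 16 endothelial markers had a higher ratio than Emcn, between -2.36 and 0.37 on the log2 scale. That of Clec14a, with signals of 361 and 21.1 in populations 1 and 2, is a bound and cannot be ordered against Emcn. In population 4, where the signal was below 100, Emcn was at least 25.0-fold lower than in population 1 and at least 5.71-fold lower than in population 3.

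Prom1 had signals of 388 in population 1, 137 in population 2, 70.8 in population 3 and 13.4 in population 4. Population 1 was highest, population 2 was lower, and populations 3 and 4 were both below 100 and were not ordered. Prom1 was 2.83-fold lower in population 2 than in population 1, and lower by at least 3.88-fold in population 4 relative to population 1. With signals raised to 200 this ratio was -0.96 on the log2 scale, no longer 2-fold. The protein is known from membrane protrusions of progenitor cells. The gene was read by 1 probe set, as was Emcn.

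Cd164 encodes endolyn, a sialomucin of haematopoietic progenitors and other cells. Its signals in populations 1 to 4 were 1708, 1452, 1689 and 1519, of which the highest was 1.18-fold the lowest. Of the 3 genes above 100 in every population, Cd34, Podxl and Cd164, it had the smallest spread. Its other probe set gave 2.39, 10.7, 16.8 and 12.1 and so added nothing above 100. Between populations 4 and 1, the log2 ratio of -0.17 changed sign to 0.44 with the mean over both probe sets.

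The leukocyte genes were low throughout. Spn had signals of 31.4, 32.8, 47.2 and 39.0 in populations 1 to 4 by its brighter probe set, and 26.0, 17.5, 29.8 and 46.1 by the other. Neither reached 100, and the probe sets placed the highest signal in different populations. Selplg had signals of 82.6, 70.7, 107 and 54.5, with only population 3 above 100. Other leukocyte genes among the haematopoietic markers varied. Ptprc (CD45), the leukocyte phosphatase that also carries mucin-type sugars, had 0.93, 2.96, 47.1 and 221 in populations 1 to 4, above 100 in population 4 only. Laptm5, a lysosomal membrane protein of blood cells, had 322, 277, 1254 and 1574, and Coro1a, an actin-binding protein of leukocytes, had 71.0, 24.3, 157 and 347. Spi1 (PU.1), a myeloid transcription factor, had 42.6, 37.3, 154 and 131. Lcp1, an actin bundling protein, was lowest in population 4, with 1391, 677, 1123 and 440.3, and Vav1, a signalling protein of blood cells, stayed below 100 with 30.5, 35.7, 74.9 and 82.0. Spn and Selplg were thus below 100 in population 4, as was Vav1, while the other markers named here exceeded it there. Whether their probe sets would read a higher level was not tested.

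The first comparison, population 2 with population 1, sets Runx1-expressing against Runx1-negative VE-cadherin positive cells. Emcn, Prom1 and Cd34 were lower in population 2 by at least 2-fold and no sialomucin gene was higher by that much: 3 of 6 against 4.19% of 9468 genes lower, and 0 of 6 against 2.92% higher. The median log2 ratio over the 6 genes was -0.67, against 0 over all genes. The endothelial markers lay the same way, with 7 of 16 lower by at least 2-fold, 0 higher and a median of -0.82. Their part in the values of the sialomucin genes was not tested. After centring on the array median the Cd34 ratio became -0.98, just short of 2-fold, and 2 of 6 remained past the limit.

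Between populations 3 and 2, which differ in CD41, Emcn and Cd34 were higher in population 3. The signal of Emcn was 571 in population 3 and 258 in population 2, a 2.22-fold difference, and that of Cd34 was 2974 and 1367, a 2.18-fold difference. These were 2 of 6 genes, against 3.11% of 9468 genes at least 2-fold higher, and 0 were at least 2-fold lower, against 0.253%. This comparison depended on scaling. After centring on the array median the log2 ratios were 0.76 for Emcn and 0.74 for Cd34, and after quantile normalisation 0.84 and 0.90, so that 0 of 6 were past the limit in both. The share of all genes higher by at least 2-fold was then 1.06% and 1.23%, and it was 11.2% when scaled on the hybridisation controls, where 2 of 6 passed.

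Cd34 and Emcn thus shared a lower signal in population 2 with a higher one on either side, each difference at least 2-fold. On the deposited scale 83 genes, 0.877% of 9468, had this shape. With centring there were 24 and after quantile normalisation 33, and neither Cd34 nor Emcn was among them, whereas scaling on the hybridisation controls gave 188 with both genes included. On the deposited scale population 3 held as much Cd34 signal as population 1 (2974 and 2950.1), but less Emcn (571 and 2498, a 4.38-fold difference). The Cd34 log2 ratio there, 0.01 as deposited, was -0.26 after quantile normalisation and 0.34 when scaled on the hybridisation controls. Its sign is thus not settled. Of all 9468 genes, 2.3% were lower by at least 2-fold in population 3 relative to population 1, and among the 6 sialomucin genes 2 were, Emcn and Prom1. None of the 6 was higher by that much, against 5.32% of all genes. The balance over all genes turned with scaling: the lower and higher shares were 3.50% and 2.63% after centring, 4.02% and 2.50% after quantile normalisation, and 1.18% and 15.4% when scaled on the hybridisation controls, with the same count of 2 sialomucin genes lower in each.

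Between populations 4 and 3, which differ in VE-cadherin, 2 of 6 genes (Cd34 and Emcn) were at least 2-fold lower in population 4, against 12.2% of 9468 genes, and 0 were at least 2-fold higher, against 7.94%. The median log2 ratio over the 6 genes was -0.41, against 0.06 over all genes. The summed signal of the endothelial markers was 3667 in population 4 and 35765 in population 3. The part of that difference in the values of Cd34 and Emcn was not tested.

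**Figure D2:**
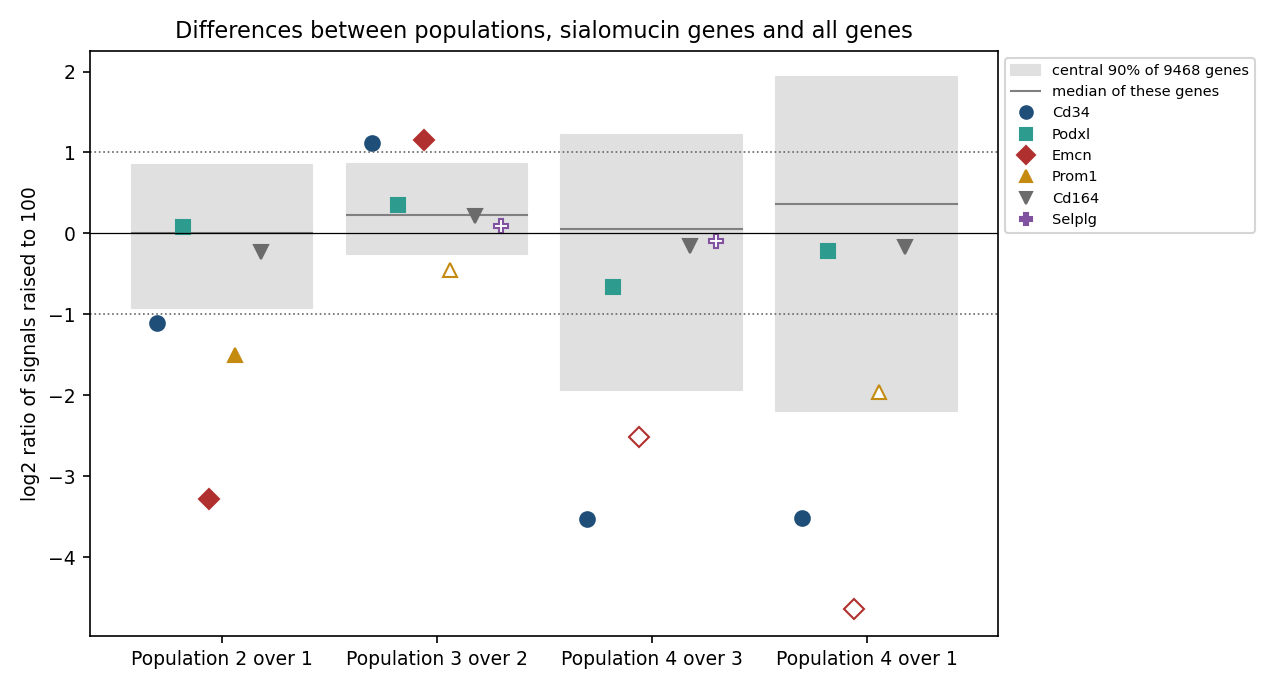
log2 ratio of signals raised to 100 for 6 sialomucin genes in 4 comparisons, with 1 array per population. Filled symbols have both signals above 100 and open symbols are bounds, grey boxes hold the central 90% of 9468 genes with their median as a line, and dotted lines mark 2-fold; Emcn lies at -3.28 for population 2 over 1, below the box.

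The genes with profiles nearest to the members were sought among 6054 genes that exceeded 400 in 1 or more populations, by the Euclidean distance of log2 signals over the 4 populations after subtracting each gene's mean. Nearest to Cd34 were Sox18 (distance 0.18), an endothelial transcription factor, Klf4 (0.24), a zinc-finger transcription factor, and Rnf144a (0.24), a ubiquitin ligase. Sox18 had signals of 1367, 592, 1309 and 21.6 in populations 1 to 4, with a lower signal in population 2 than in populations 1 and 3, as for Cd34. It is also 1 of the 16 endothelial markers. Klf4 had 3184, 1797, 3625 and 279.7, again with population 3 at least as high as population 1 on the deposited scale. Nearest to Emcn were Esm1 (0.22), an endothelial proteoglycan, Sparcl1 (0.35), a matricellular protein, and Cxcr4 (0.52), the receptor of the chemokine Cxcl12. Esm1 had signals of 2748, 305, 698 and 3.06, close in shape to those of Emcn. Cxcr4 had 1732, 173, 359 and 10.3, with the same order of populations. Nearest to Prom1 were Id2 (0.31), an inhibitor of helix-loop-helix factors, Meis2 (0.37), a homeobox factor, and Jag1 (0.44), a Notch ligand. Id2 had 404, 120.4, 118 and 90.3, with population 1 standing above the other populations. With 4 points a profile has few ways to differ, and the distances describe shape only. Differences below 100 did not enter them. In population 4, Sox18 (21.6) and Rnf144a (83.0) were below 100 and Cd34 (257) was not. Emcn and its 3 nearest genes were all below 100 there.

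**Figure D3:**
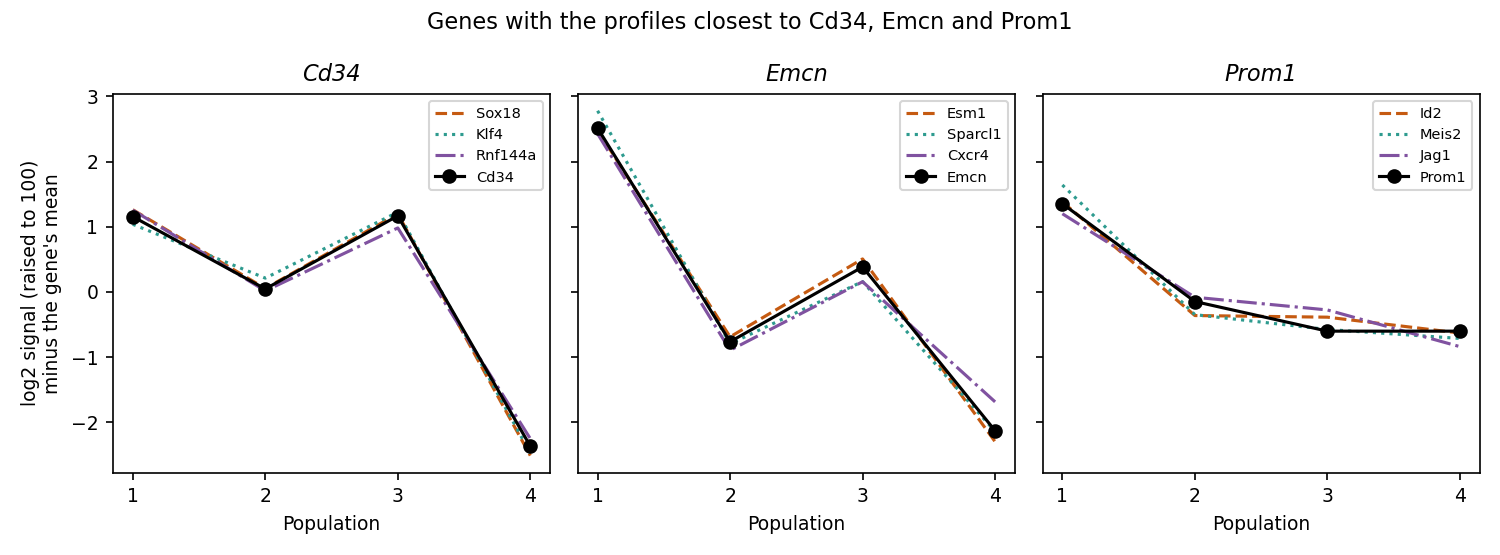
Profiles of Cd34, Emcn and Prom1 (black circles) and of the 3 nearest genes of each, as log2 signal raised to 100 minus the gene's mean over populations 1 to 4. There is 1 array per population, and Sox18, Esm1 and Id2 are the nearest, at distances of 0.18, 0.22 and 0.31.

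Genes that build, cap or bind sialomucins were read as lists, each beside the 22.4% of all 9468 genes that were higher and the 12.9% that were lower by at least 2-fold between populations 4 and 1, and their median log2 ratio of 0.36. In population 4, 2 of 13 measured genes above 100 listed under O-glycan initiation and core synthesis were at least 2-fold higher than in population 1. Another 2 were lower by that much, and the median log2 ratio was 0.32, near the values over all genes. The higher genes were Gcnt1 and Galnt10, and the lower ones Galnt18 and B3gnt5. Galnt10 exceeded 100 in population 4 alone (339), so it could not count as lower. Galnt18 and B3gnt5 were below 100 in population 4 (53.8 and 66.5), so their ratios are bounds. Gcnt1, the core 2 branching enzyme on whose products selectin ligands are built, had signals of 98.1, 230, 391 and 970 in populations 1 to 4. It was higher in each population than in the one before, and in population 4 its signal was higher than in population 1 by at least 9.70-fold. Its other probe set also was highest in population 4, at 211, and lowest in population 1, at 29.3.

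Of 17 genes of sialylation, fucosylation and sulphation above 100, 5 were higher and 5 lower by at least 2-fold in population 4 relative to population 1, with a median log2 ratio of 0.58, against 22.4% higher, 12.9% lower and 0.36 over all genes. Chst1, a sulphotransferase of sugar chains, had signals of 1139, 126, 365 and 99.4 in populations 1 to 4, so that population 4 was lower than population 1 by at least 11.4-fold. Like Cd34 and Emcn it was lower in population 2 than in populations 1 and 3. St6gal1, which adds sialic acid mainly to N-linked chains, had signals of 865, 592, 401 and 55.8, so that population 4 was lower than population 1 by at least 8.65-fold. The other St6gal1 probe set gave 17.1, 17.4, 9.43 and 20.4 and so added nothing above 100. The 5 higher genes were St3gal6, St3gal2, St6galnac6, Tpst1 and St3gal3. Their log2 ratios of population 4 over 1 were 1.67, 1.32, 1.25, 1.16 and 1.04. The other lower genes were Chst2, St3gal1 and St6galnac3, at -1.75, -1.15 and -1.03, of which that of Chst2 is a bound. St3gal4 exceeded 100 in population 4 alone, so it could not count as lower. Fut4 and Fut7, the fucosyltransferases of selectin ligands, stayed below 100 in every population. The 4 genes that make, activate and transport sialic acid (Gne, Nans, Cmas and Slc35a1) stayed within 2-fold, with log2 ratios of population 4 over population 1 of 0.46, 0.60, 0.84 and 0.53.

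Of the selectins, Sele and Selp had named probe sets. Sele had signals of 20.1, 9.53, 10.7 and 10.1 in populations 1 to 4. Selp had 16.1, 21.3, 72.8 and 35.1 by its brightest probe set. Neither reached 100.

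Of the 6 genes for proteins that can bind sialomucin tails, 1 was higher and 1 lower by at least 2-fold in population 4 relative to population 1, near the shares of all genes (22.4% and 12.9%). Slc9a3r2, which encodes the scaffold NHERF2, a partner of podocalyxin, had signals of 878, 278, 995 and 130 in populations 1 to 4, so that it was low in population 2 and again in population 4. It was 6.77-fold lower in population 4 than in population 1, and each of the 6 probe sets was lower in populations 2 and 4 than in populations 1 and 3. Ezr, which encodes ezrin, a link from membrane to actin, had 358, 328, 353 and 1060 in populations 1 to 4, with population 4 the highest. Msn (moesin) had 5743, 5846, 7922 and 3245, with population 4 the lowest.

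Of 11 other mucin-type and sialoglycoprotein genes above 100, 5 were higher and 1 lower by at least 2-fold in population 4 relative to population 1, with a median log2 ratio of 0.68, against 22.4% higher, 12.9% lower and 0.36 over all genes. Muc13, Ptprc and Ptprj exceeded 100 in population 4 alone (160, 221 and 130), so they could not count as lower. Ptprc was among the 5 higher genes, and the median was the bound of Muc13. The gene lower by at least 2-fold was Madcam1, an endothelial addressin that binds integrin and L-selectin. Its signals were 941, 82.7, 131 and 16.8 in populations 1 to 4. In population 2 it was lower than in population 1 by at least 9.41-fold, beside 9.70-fold for Emcn. Gypc (glycophorin C of red cells) had 211, 427, 685 and 1381, and was 6.54-fold higher in population 4 than in population 1. Parm1, a mucin-like androgen-regulated protein, had 64.5, 221, 391 and 632. Both of these were higher in each population than in the one before.

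**Figure D4:**
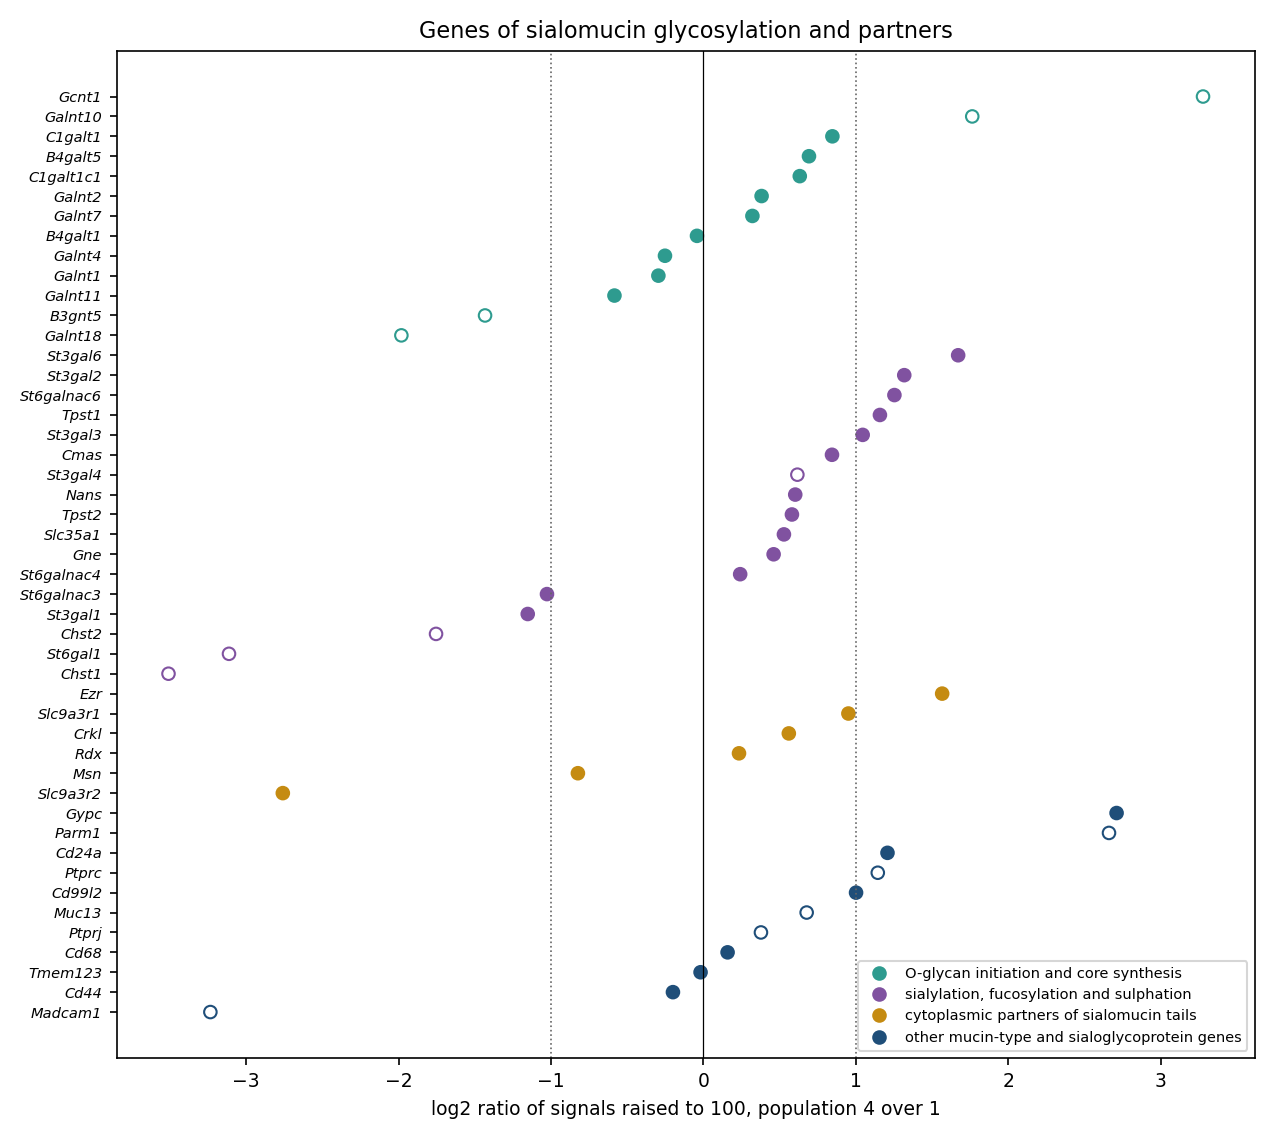
log2 ratio of population 4 over population 1 (signals raised to 100) for genes above 100 in 4 lists related to sialomucins, with 1 array per population. Open circles are bounds and dotted lines mark 2-fold; Gcnt1 lies at 3.28, Chst1 at -3.51 and Slc9a3r2 at -2.76.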

How the data were processed

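RNA of 4 sorted populations was hybridised to Affymetrix mouse genome arrays, 1 for each population. The values deposited by the authors are intensity signals of probe sets, linear rather than log, and the submitters' notes name MAS5 and GCOS 1.3. The scaling target and detection calls are not given in the sources used here. The array has 45101 probe sets, of which 34958 name a single gene; 932 with several symbols and 9211 without one were left out. Symbols were updated by gene identifier to GRCm38.p6 records, which matched 34754 of the probe sets. Where a gene had several probe sets, the one brightest on average (log2 scale) stood for it. Ratios used signals raised to 100, and genes were counted when a signal exceeded 100 in at least 1 population, a level the study also used as a filter. At least 2-fold was the limit, with no test. Named genes were the 8 members, the sort markers, the selectins, and for members with at least 2-fold range the 3 nearest genes by profile. Up to 4 genes a list at least 4-fold different between populations 4 and 1 were also named. Others were chosen after their values were seen (Laptm5, Ptprc, Coro1a, Spi1, Lcp1, Vav1, Ezr, Msn, Fut4, Fut7, the sialic acid genes, single markers). So were the further glycosylation and mucin-type genes named beside their list counts. The members and lists were chosen with earlier results of these data known. The alternatives were array median centring, quantile normalisation, averaging a gene's probe sets, dropping shared probe sets, other floors and no minimum. Scaling on 18 hybridisation control probe sets was added after the data were seen, as were the alternatives for the counts of population 3 over 1. Python 3.11.15, pandas 2.3.3, numpy 2.4.6 and matplotlib 3.10.9 were used. The study's Agilent replicate set and its other experiments were not analysed here.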

Additional observations from a re-analysis of the deposited data

How the results depend on the processing

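No paired analysis was possible because the data used hold 1 array per population. The 8 alternative settings gave 320 member ratios. Most were not past 2-fold as deposited and so could not lose that limit. The ratios of Podxl2 and Spn were 0 in every setting. Using no minimum or dropping shared probe sets left every member ratio as it was. Averaging probe sets could not change Cd34, Emcn or Prom1, which have 1 each. Of the called ratios, 8 lost the 2-fold limit and 0 turned their direction past it. They were the population 2 over 1 ratio of Cd34 after centring on the array median (-0.98), the population 3 over 2 ratios of Cd34 and Emcn after centring (0.74 and 0.76) and after quantile normalisation (0.90 and 0.84), and the 3 ratios of Prom1 against population 1 with signals raised to 200 (-0.96 each). Consequently the count of sialomucin genes higher in population 3 than in population 2 by at least 2-fold, which was 2, became 0 after centring and 0 after quantile normalisation. The count lower in population 3 than in population 1, which was 2, became 1 with signals raised to 200. The counts of the other comparisons and directions stayed within 1.5 times under the 8 settings. Bounds moved with the floor by construction: the Emcn log2 ratio of population 4 over 1 was -5.64 with a floor of 50 and -3.64 with a floor of 200. The median log2 ratio of all genes for population 3 over 2 was 0.22 as deposited, -0.08 after centring and 0.57 when scaled on the hybridisation controls, and for population 4 over 1 it was 0.36, 0.28 and 0.65. Signals near or below 100 set the limit for Spn, Selplg and Podxl2.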
